A study of Mus musculus with 16 samples.

Results

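Mir155 and Mir146 are 2 of the 1885 small RNA intervals counted in sorted blood cells of mouse bone marrow, and 2 of the 543 counted intervals that carry a miRNA name. They were chosen as the intervals whose coordinates equal those of the genes Mir155 and Mir146 in GENCODE release M21 on GRCm38. Mir146 is the gene of miR-146a. Both were counted in all 16 libraries and both passed the filter on low counts.

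The study profiled snoRNAs of blood progenitors and mature cells from wild-type mice, and miRNA counts came with them. Total RNA was taken from cells sorted by flow cytometry, and each of 8 populations had 2 libraries. The mature populations were T, B, Myeloid (spelled "Myloid" in the label) and Erythroid cells. The progenitors were the common lymphoid progenitor (CLP), the granulocyte-monocyte progenitor (GMP), the megakaryocyte-erythroid progenitor (MEP) and the common myeloid progenitor (CMP). No treatment, strain or age was named for any group, and all groups share the wild-type genotype and the bone marrow source. The antibodies named for sorting were directed at lineage antigens, Sca-1, c-Kit and progenitor antigens, without a gate for each population, so the maturation state and subtype of the B, T and Myeloid cells are known only as far as their names go.

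miR-155 and miR-146a are the miRNAs most often studied in the activation of immune cells. Both genes are transcribed on Toll-like receptor and NF-kB signalling. miR-155 promotes lymphocyte and macrophage responses, while miR-146a targets the signalling adaptors Traf6 and Irak1 and thereby restrains the same pathway. A mature miRNA pairs with its targets mainly through its seed, the bases 2 to 8 from its 5′ end, so miRNAs with one seed share many predicted targets.

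The mature sequences are shown because the seed decides which other miRNA is set beside a member. They are from RefSeq, build GRCm38.p6, 5′ to 3′, with the seed in capitals.

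miR-155-5p: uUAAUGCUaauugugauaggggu
miR-155-3p: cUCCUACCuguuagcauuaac
miR-146a-5p: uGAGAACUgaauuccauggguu
miR-146a-3p: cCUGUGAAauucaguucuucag
miR-146b-5p: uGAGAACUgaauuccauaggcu

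Among the mature mouse miRNAs of that table, the miR-155-5p seed UAAUGCU occurred once, and the miR-146a-5p seed GAGAACU occurred in 2, miR-146a-5p and miR-146b-5p. These 2 were identical at 20 of 22 positions. The differences, with the miR-146a-5p base first and positions counted from 1 at the 5′ end, were G18A and U21C. Mir146b, the gene of miR-146b, was therefore followed as the seed partner of Mir146. The first 17 bases of both are the same, so a read confined to them could have been counted for either gene.

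The counted intervals are the hairpins, shown here with both mature arms in capitals and the rest in lower case, because the libraries were selected on a gel for inserts of snoRNA length and the counts do not separate mature miRNAs from longer precursor fragments.

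Mir155: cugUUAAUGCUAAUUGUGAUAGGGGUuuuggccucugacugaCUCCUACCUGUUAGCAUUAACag
Mir146: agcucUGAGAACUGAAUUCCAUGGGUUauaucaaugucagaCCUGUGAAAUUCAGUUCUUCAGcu
Mir146b: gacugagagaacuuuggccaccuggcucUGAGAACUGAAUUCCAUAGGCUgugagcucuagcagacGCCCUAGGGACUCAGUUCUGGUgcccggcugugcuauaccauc

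Mir155 (ENSMUSG00000065397) lies at chr16:84714140-84714204 on the plus strand of GRCm38. This is within exon 2 of the lincRNA gene Mir155hg, its host transcript, on the same strand. Mir146 (ENSMUSG00000065601) lies at chr11:43374397-43374461 on the minus strand. It overlaps no other gene of the annotation, and the nearest one, the lincRNA Gm12148 on the plus strand, is 11021 bases away. Mir146b (ENSMUSG00000070127) lies at chr19:46342762-46342870 on the plus strand, in an intron of the protein-coding gene Mfsd13a on the same strand. The Mir155 and Mir146 intervals are both 65 bases long, so their counts within a library are over equal lengths. Whether both miRNAs were recovered alike was not tested, so a ratio of them is a ratio of counts only. The Mir146b interval is 109 bases long. The longest stretch shared by the Mir146 and Mir146b hairpins was 21 bases.

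Library totals ran from 8197458 to 41799906 counts, and intervals named as miRNAs held 0.535% to 3.18% of them. That share was 3.06% and 3.18% in the Myeloid libraries and 0.670% and 0.687% in the B libraries. It differed within pairs, at 0.746% and 1.94% in Erythroid, 0.688% and 1.60% in GMP, and 1.39% and 0.535% in MEP (libraries 1 and 2), and the median miRNA moved by 1.26, 1.07 and -1.28 (log2, library 2 over library 1) in those pairs. Levels are therefore given on 2 scales. The first is CPM, the count over library sizes scaled by the trimmed mean of M values (TMM) of all tested features, times 1e6. The second is counts per 1000 miRNA counts, with tests that scale on miRNAs alone. Of the marker miRNAs of blood lineages, the lymphoid Mir150 was highest in T and the myeloid Mir223 in Myeloid (by share of miRNA counts, in GMP). The erythroid Mir451a/Mir451b averaged 145 CPM in Erythroid, against 157 in MEP and 140 in CLP (over library totals). Mir144 had 2.56 CPM in Erythroid and 4.75 in MEP, and Mir486 had 2.84 and 6.95. These erythroid markers thus did not set the Erythroid label apart. Of the tested stem and progenitor markers, Mir126a, Mir99a and Mir125b-1 were highest in CMP and Mir10a in Myeloid (by share, in CMP). Of the T and lymphoid precursor markers, Mir181a-1 and Mir181a-2 were highest in T, and Mir181b-1 and Mir181b-2 in CMP (by share, all in B). In these bulk samples, fewer cells of a type and less RNA per cell cannot be told apart.

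Mir155 was highest in T cells and scarce everywhere. T libraries 1 and 2 held 126 and 174 counts, B libraries 94 and 78, Myeloid libraries 82 and 178, and Erythroid libraries 48 and 88. CLP libraries held 52 and 150 counts, GMP libraries 44 and 84, MEP libraries 116 and 52, and CMP libraries 34 and 124. All these counts were even, as for read pairs with both mates counted, so they would stand for 17 to 89 pairs, with exact Poisson 95% intervals of about 21.4% to 50.9% to either side, for counting error only.

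Scaled for depth, the T libraries had 12.2 and 12.5 CPM of Mir155, more than any other library. B libraries had 5.57 and 6.10 CPM, Myeloid 4.58 and 4.43, and Erythroid 2.89 and 4.41. CLP had 2.29 and 3.26 CPM, GMP 3.00 and 5.33, MEP 4.80 and 3.26, and CMP 3.54 and 5.39. On this TMM scale the B libraries stood above all Myeloid, Erythroid and progenitor libraries, while the Myeloid and Erythroid libraries lay within the range of the progenitors. The place of B depended on the scaling. Over library totals without TMM the B libraries had 4.71 and 4.91 CPM, below both Myeloid libraries (5.26 and 4.98). The B mean over totals (4.81) was below those of CMP (5.14) and Myeloid (5.12).

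As means of 2 libraries with the SD, Mir155 ran in the order T (12.4 ± 0.210 CPM), B (5.84 ± 0.372), Myeloid (4.50 ± 0.109), CMP (4.47 ± 1.31), GMP (4.16 ± 1.65), MEP (4.03 ± 1.09), Erythroid (3.65 ± 1.07) and CLP (2.78 ± 0.680). Its level varied among populations (adjusted p = 0.00285; every adjusted p of a feature here is Benjamini-Hochberg adjusted from edgeR's quasi-likelihood F test), as did 61.1% of the 749 features tested. The order came from the same values, so the p values of its steps describe the spread between libraries and support no order. Of the steps between neighbours in this order, T over B passed at 1.08 (log2, adjusted p = 0.0292), a comparison in which 28.2% of features were called. That call was lost without either library of T or B and without Myeloid library 1 (adjusted p up to 0.113), and on miRNAs alone the step was 0.10. The next steps, B over Myeloid at 0.37 (adjusted p = 0.430, 29.2% of features called) and Myeloid over CMP at -0.01 (0.981, 31.0% called), did not pass. Neither did CMP over GMP at 0.12 (adjusted p = 0.834, 25.5% called), GMP over MEP at 0.04 (0.975, 7.61% called), MEP over Erythroid at 0.15 (0.829, 9.88% called) or Erythroid over CLP at 0.39 (0.515, 12.8% called).

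Mir146 was also highest in T cells, with Myeloid cells next. T libraries held 1158 and 1830 counts, Myeloid libraries 964 and 2572, B libraries 568 and 450, and Erythroid libraries 232 and 784. CLP libraries held 422 and 824 counts, GMP libraries 142 and 290, MEP libraries 946 and 256, and CMP libraries 250 and 592. These counts were all even too and would stand for 71 to 1286 read pairs, with exact Poisson 95% intervals of about 5.51% to 24.0% to either side.

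Scaled for depth, the T libraries had 112 and 131 CPM of Mir146, Myeloid 53.8 and 64.0, B 33.7 and 35.2, and Erythroid 14.0 and 39.3. CLP had 18.6 and 17.9 CPM, GMP 9.67 and 18.4, MEP 39.2 and 16.05, and CMP 26.0 and 25.7. The T and Myeloid libraries stood above every progenitor library. On this TMM scale the B libraries stood above all progenitors but MEP library 1, and the Erythroid pair spanned most of the progenitor range. Over library totals without TMM the B libraries had 28.4 and 28.3 CPM, below both CMP libraries (30.5 and 29.3) and MEP library 1 (41.1). The B mean over totals (28.39) was below those of MEP (28.55) and CMP (29.89).

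As means of 2 libraries with the SD, Mir146 ran in the order T (122 ± 13.7 CPM), Myeloid (58.9 ± 7.15), B (34.4 ± 1.07), MEP (27.6 ± 16.4), Erythroid (26.6 ± 17.9), CMP (25.9 ± 0.199), CLP (18.3 ± 0.519) and GMP (14.0 ± 6.17). It varied among populations (adjusted p = 0.00148). No step between neighbours passed, and here too the order came from the same values, so the p values of the steps support no order. T over Myeloid was 1.05 (log2, adjusted p = 0.115, 30.4% of features called), Myeloid over B 0.78 (0.247, 29.2% called) and B over MEP 0.31 (0.640, 35.0% called). MEP over Erythroid was 0.05 (adjusted p = 0.956, 9.88% called), Erythroid over CMP 0.04 (0.971, 26.6% called), CMP over CLP 0.50 (0.479, 23.4% called) and CLP over GMP 0.38 (0.854, 6.94% called). The libraries of T and Myeloid, of Myeloid and B, and of CMP and CLP did not overlap.

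**Figure D1:**
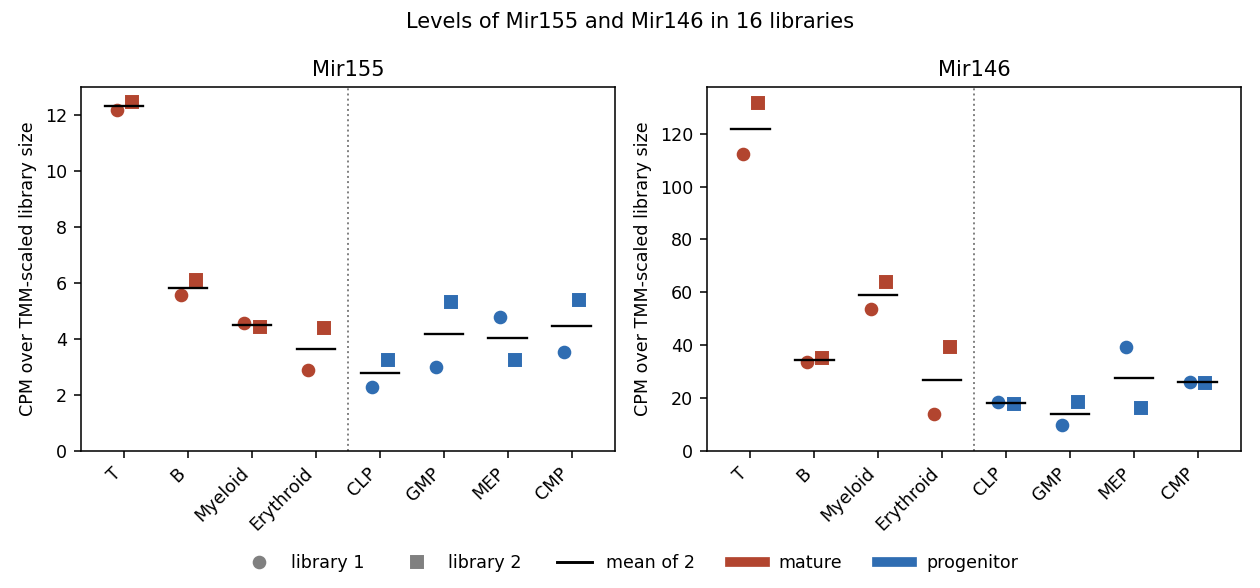
Levels of Mir155 (left) and Mir146 (right) in each of the 16 libraries, as CPM over TMM-scaled library sizes, with mature populations left of the dotted line, circles for library 1, squares for library 2 and bars for the mean of 2. Both T libraries stand above all others for both miRNAs, and the GMP, MEP and Erythroid pairs of Mir146 lie 1.90-fold to 2.81-fold apart.

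Set against the mean of the other 7 populations, T stood apart for both miRNAs. Mir155 was higher in T by 1.58 ± 0.22 (log2 ± SE, adjusted p = 0.000118) and Mir146 by 2.18 ± 0.30 (adjusted p = 9.71e-05). T was also the population with the most calls, at 47.8% of features in either direction. Both T calls held in every alternative run, with Mir155 between 0.77 and 1.73 and Mir146 between 1.40 and 2.34. Mir155 was lower in CLP by this test (-0.87 ± 0.27, adjusted p = 0.0346, 23.8% of features called), a call that was lost over library totals (-0.71, adjusted p = 0.0837), on miRNAs alone (-0.33, 0.281), with no filter on low counts and in 9 of the 16 fits that left out 1 library. Those were the fits without either library of CLP, B, T or Myeloid or without CMP library 2 (-0.60 to -1.08). Mir146 was higher in Myeloid (0.99 ± 0.32, adjusted p = 0.0388, 30.0% called) and lower in GMP (-1.38 ± 0.40, 0.0258, 26.0% called). The Myeloid call was lost on miRNAs alone, where the value was -0.08 (adjusted p = 0.571, 49.3% of miRNAs called). It was also lost in 9 of the 16 fits that left out 1 library, namely either library of Myeloid, CMP, B or T or CLP library 1 (0.83 to 1.04, adjusted p up to 0.291). The GMP call was lost without GMP library 1 (-1.06, adjusted p = 0.183). On the TMM scale neither miRNA passed in B, Erythroid, MEP or CMP, where 31.4%, 16.6%, 28.4% and 32.0% of features were called.

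On miRNAs alone more populations passed against the other 7. Mir155 was higher in T (0.90, adjusted p = 0.000426, 45.8% of miRNAs called) and in B (0.78, 0.00339, 41.4% called), and lower in Myeloid (-1.18, 8.71e-05). Mir146 was higher in T (1.53, adjusted p = 1.55e-12) and in B (0.57, 0.000117). It was lower in GMP (-1.04, adjusted p = 4.16e-07, 25.6% called), Erythroid (-0.45, 0.00468, 27.1% called), CMP (-0.37, 0.0113, 46.3% called) and CLP (-0.36, 0.0223, 24.6% called). In MEP, where 30.0% of miRNAs were called, neither passed. The B call of Mir155 was lost without either B library (adjusted p up to 0.127), and that of Mir146 without B library 1 (0.42, adjusted p = 0.0605). The Mir146 calls were lost in Erythroid without Erythroid library 1 or CMP library 2 (-0.15 and -0.25), in CMP without CMP library 1 (-0.39, adjusted p = 0.0617) and in CLP without either CLP library (-0.50 and -0.30). The T calls, the Myeloid call of Mir155 and the GMP call of Mir146 held in all 16 fits that left out 1 library.

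As shares of the miRNA counts, the order changed. Mir155 made up 0.709 ± 0.00899 per 1000 miRNA counts in B and 0.587 ± 0.0495 in T, then 0.485 ± 0.174 in MEP, 0.406 ± 0.0643 in GMP, 0.390 ± 0.103 in CMP, 0.319 ± 0.0583 in CLP, 0.301 ± 0.104 in Erythroid and 0.164 ± 0.0109 in Myeloid. The Myeloid libraries, at 0.172 and 0.156, were the lowest of all 16, although Myeloid was in place 3 of the order by CPM. Mir146 made up 5.77 ± 0.0630 per 1000 in T and 4.19 ± 0.0839 in B, above every other library, and 2.97 ± 0.0318 in MEP. It made up 2.27 ± 0.0862 in CMP, 2.14 ± 0.169 in Myeloid, 2.11 ± 0.194 in CLP, 1.92 ± 0.150 in Erythroid and 1.35 ± 0.150 in GMP. The pairs of Mir146 that lay far apart in CPM drew together on this scale. Those of Mir155 did not in MEP (0.361 and 0.608 per 1000) or in Erythroid (0.374 and 0.227). Mir146 made up 1.81 and 2.02 per 1000 in Erythroid, against 2.95 and 2.99 per 1000 in MEP. Among the miRNAs of its library, Mir146 ranked 24 and 23 in the T libraries and 55 and 53 in the GMP libraries, and Mir155 ranked 75 and 77 in T and 108 and 115 in Myeloid.

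**Figure D2:**
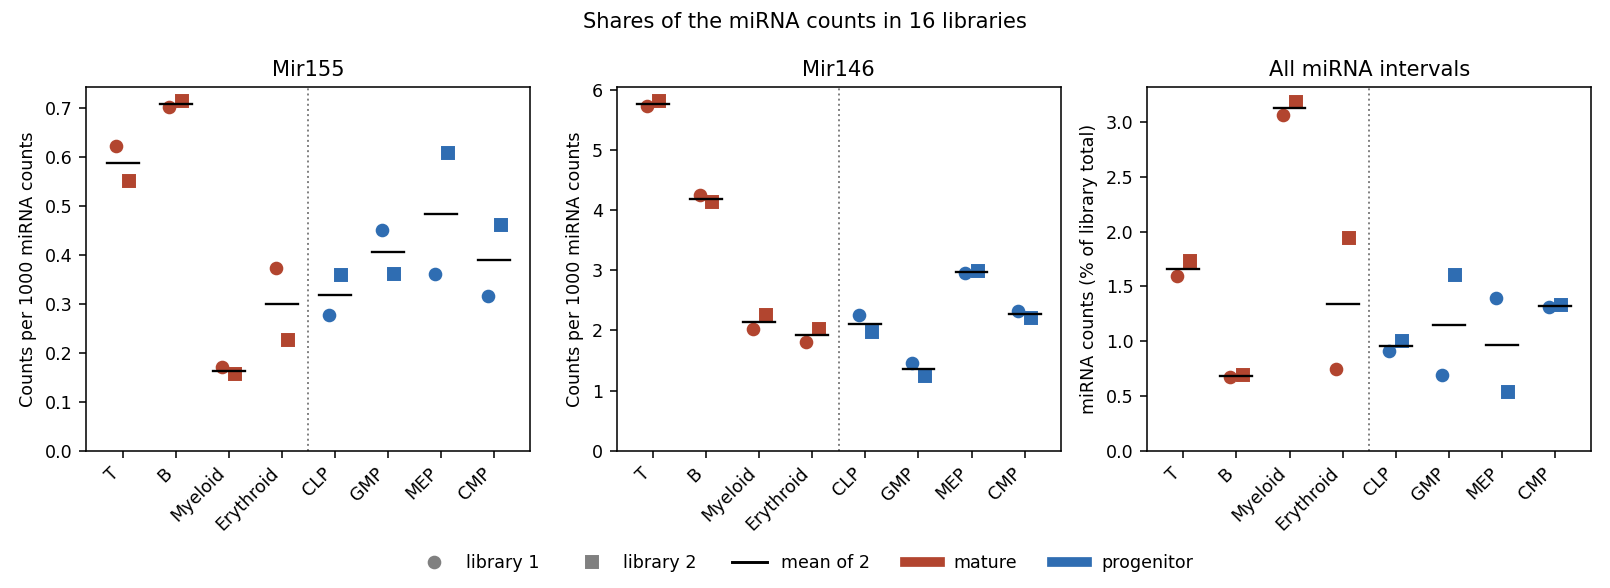
Counts of Mir155 (left) and Mir146 (middle) per 1000 miRNA counts, and miRNA counts as a percentage of the library total (right), in each of the 16 libraries. The mean of both miRNAs is highest in T and B on this scale, Mir155 is lowest in Myeloid, and the miRNA percentage is highest in Myeloid, at 3.06% and 3.18%.

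The first comparison of the design is mature cells over progenitors. Mir146 rose on both scales, and Mir155 rose on the TMM scale alone. Mir146 averaged 60.4 ± 43.2 CPM in the 4 mature populations and 21.4 ± 6.40 CPM in the 4 progenitors (SD over population means). Mir155 averaged 6.59 ± 3.95 CPM in mature populations and 3.86 ± 0.745 CPM in progenitors. On the TMM scale Mir146 was higher by 1.29 ± 0.24 (log2, 2.45-fold, adjusted p = 0.000866) and Mir155 by 0.62 ± 0.17 (1.53-fold, adjusted p = 0.0100), where 23.1% of features were higher and 26.7% lower. The median change of the 201 tested miRNAs was 0.67 on this scale, so the Mir155 change was close to that of the median miRNA and the Mir146 change above it. Mir155 did not pass over library totals without TMM (0.38, adjusted p = 0.0832). With scaling on miRNAs alone, where 29.1% of 203 miRNAs were higher and 31.0% lower, Mir146 was higher by 0.69 ± 0.07 (1.61-fold, adjusted p = 1.58e-08) and Mir155 was at 0.02 ± 0.15 (adjusted p = 0.950).

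These tests take libraries as replicates, and the populations of a stage differ. With the libraries of a population summed and 4 populations set against 4, Mir146 was at 1.58 (adjusted p = 0.0661) and Mir155 at 0.81 (adjusted p = 0.220), and 2.85% of 737 features were called. The log2 share of miRNA counts was compared by a two-sided exact permutation test over the 70 assignments of populations, which cannot give a p below 0.0286. It differed by 0.59 for Mir146 (exact p = 0.257, adjusted over 3 tests 0.386) and by -0.06 for Mir155 (exact p = 0.914, adjusted 0.914). For both miRNAs 2 of 4 mature populations, T and B, stood above all progenitors by share, and the Erythroid and Myeloid shares did not.

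In the lymphoid branch both miRNAs rose, and they did so on both scales. Mir155 had 12.2 and 12.5 CPM in T and 5.57 and 6.10 in B, against 2.29 and 3.26 in CLP, with no overlap. B and T over CLP was 1.60 ± 0.30 (3.03-fold, adjusted p = 0.00133). Mir146 was higher by 1.83 ± 0.44 (3.55-fold, adjusted p = 0.00640). Its means were 122 CPM in T and 34.4 CPM in B, against 18.3 CPM in CLP, so T lay much farther above CLP than B. The test averages B and T, and neither was tested alone against CLP. In this comparison 18.0% of features were higher and 25.2% lower. On miRNAs alone Mir155 was higher by 1.03 ± 0.25 (adjusted p = 0.00144) and Mir146 by 1.23 ± 0.13 (2.43e-08), where 19.7% of miRNAs were higher and 22.2% lower. Without CLP library 1 the Mir155 value on miRNAs alone was 0.82 (adjusted p = 0.0655).

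In the granulocyte-monocyte branch Mir146 rose and the direction of Mir155 depended on the scale. Mir146 had 53.8 and 64.0 CPM in Myeloid, against 9.67 and 18.4 CPM in GMP. Myeloid over GMP was 2.07 ± 0.49 (4.19-fold, adjusted p = 0.00878), where 15.5% of features were higher and 16.3% lower, and on miRNAs alone 0.84 ± 0.15 (1.80-fold, adjusted p = 7.78e-05). Without GMP library 1 the TMM value was 1.72 (adjusted p = 0.0593). Mir155 was at 0.11 ± 0.33 on the TMM scale (adjusted p = 0.853). On miRNAs alone it was lower in Myeloid by -1.12 ± 0.29 (adjusted p = 0.00231), where 19.2% of miRNAs were higher and 25.1% lower. That call was lost without GMP library 1 (-0.73, adjusted p = 0.0985) and without GMP library 2 (-0.87, 0.0642). The median tested miRNA moved by 1.24 in this branch on the TMM scale.

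In the erythroid branch neither miRNA passed on the TMM scale. Erythroid over MEP was -0.15 ± 0.34 for Mir155 (adjusted p = 0.829) and -0.05 ± 0.47 for Mir146 (0.956), where 4.41% of features were higher and 5.47% lower. The 2 libraries of each population stood far apart, at 14.0 and 39.3 CPM of Mir146 in Erythroid and 39.2 and 16.05 in MEP. Without library 1 of GMP, MEP and Erythroid the Mir146 value was 1.27 (adjusted p = 5.69e-06), and without library 2 of these it was -1.49 (3.64e-06), so its direction on this scale rests on which library is kept. Library 1 of these 3 populations carries an extra number in its deposited name, whose meaning is not given in the sources used here. On miRNAs alone Mir146 was lower in Erythroid by -0.57 ± 0.15 (adjusted p = 0.00509) and Mir155 was at -0.64 ± 0.30 (0.112), where 10.3% of miRNAs were higher and 21.2% lower. The Mir146 call was lost without CMP library 2, GMP library 2, either MEP library or Erythroid library 1 (-0.25 to -0.43).

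**Figure D3:**
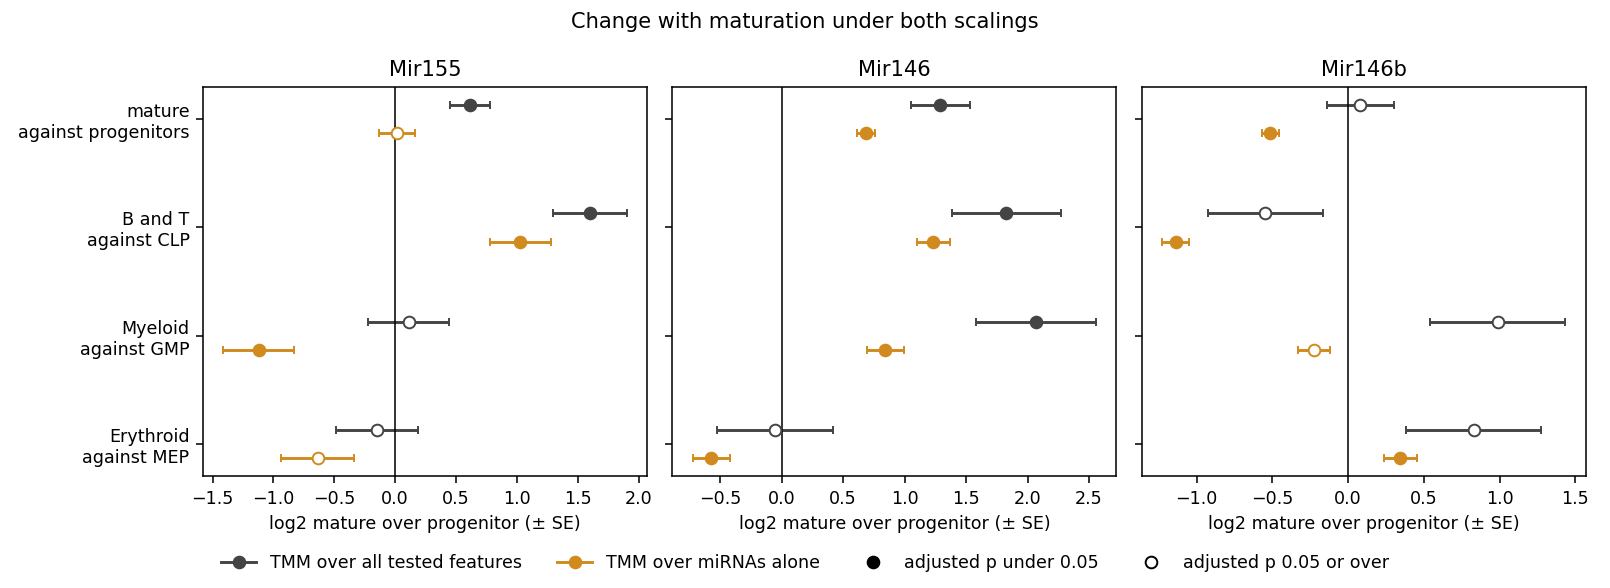
Change of Mir155, Mir146 and Mir146b in mature cells over progenitors and in each branch (log2 ± SE), with TMM over all tested features in grey and over miRNAs alone in orange; filled points have an adjusted p under 0.05. Mir155 in Myeloid over GMP is at 0.11 on one scale and -1.12 on the other, while Mir146 is above 0 on both in all but the erythroid branch.

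The differences between branches were tested directly. The Mir155 change in the lymphoid branch exceeded that in the granulocyte-monocyte branch by 1.49 ± 0.44 (adjusted p = 0.0391, 17.9% of features called) and that in the erythroid branch by 1.75 ± 0.45 (0.0159, 21.4% called). On miRNAs alone these differences were 2.15 ± 0.38 (adjusted p = 0.000131, 20.2% of miRNAs called) and 1.67 ± 0.39 (0.00273, 17.7% called). On the TMM scale the first call was lost in 10 of the 16 fits that left out 1 library (1.04 to 1.75 over all 16), and the second without CLP library 1, MEP library 1 or Erythroid library 1 (1.41 to 1.57). On miRNAs alone the second call was lost without MEP library 2 (1.13, adjusted p = 0.0526) and without Erythroid library 2 (1.17, 0.0595). The granulocyte-monocyte change of Mir155 minus the erythroid one was 0.26 ± 0.47 (adjusted p = 0.784, 9.21% called). For Mir146 the TMM scale gave -0.24 ± 0.62 between the lymphoid and granulocyte-monocyte branches (adjusted p = 0.848). It gave 1.88 ± 0.63 between the lymphoid and erythroid branches (0.0563) and 2.12 ± 0.67 between the granulocyte-monocyte and erythroid branches (0.0813). On miRNAs alone the last 2 were 1.81 ± 0.20 (8.94e-08) and 1.42 ± 0.21 (4.01e-05, 17.2% of miRNAs called), and the first was 0.39 ± 0.20 (0.183). Over all populations 76.8% of miRNAs were called on that scale, with Mir155 at 3.99e-05 and Mir146 at 1.20e-11.

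Mir146 and its seed partner Mir146b differed in where they were high. Mir146b averaged 369 ± 15.5 CPM in Myeloid, 177 ± 100 in Erythroid, 140 ± 22.0 in T and 65.5 ± 2.91 in B. It averaged 186 ± 90.1 CPM in GMP, 185 ± 0.799 in CMP, 140 ± 10.3 in CLP and 99.7 ± 58.7 in MEP. By CPM its mean was highest in Myeloid and lowest in B. Per 1000 miRNA counts it made up 13.4 in Myeloid, 13.3 in Erythroid, 7.96 in B and 6.61 in T, against 17.7 in GMP, 16.2 in CMP, 16.1 in CLP and 10.7 in MEP, highest in GMP and lowest in T. Mir146b did not pass in mature cells over progenitors on the TMM scale (0.08 ± 0.22, adjusted p = 0.777) and was lower on miRNAs alone (-0.51, 7.70e-09).

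The ratio of the pair within a library needs no scaling, and its libraries lay close together. Mir146 gave 47.4% and 45.8% of the summed counts of Mir146 and Mir146b in T and 34.7% and 34.2% in B. It gave 13.1% and 14.4% in Myeloid, and 11.6% and 13.7% in Erythroid. In the progenitors it gave 21.7% and 21.6% in MEP, 12.4% and 12.2% in CMP, 12.3% and 10.8% in CLP, and 7.32% and 6.86% in GMP. All T and B libraries stood above all others, and the Myeloid and Erythroid libraries lay between those of GMP and MEP. The summed pair made up 12.4 ± 0.433 per 1000 miRNA counts in T and 12.1 ± 0.136 in B, against 18.3 ± 0.0337 in CLP. Over library totals it was 206 ± 19.5 CPM in T and 82.4 ± 0.534 CPM in B, against 174 ± 10.98 CPM in CLP, so the sum was smaller than in CLP on both scales in B and on the first alone in T. These shares are of counts over intervals of different length, were chosen for description after their values were seen and carry no test.

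The ratio of Mir146 to Mir155 counts, over intervals of equal length, was 9.19 and 10.5 in T, 11.8 and 14.4 in Myeloid, 6.04 and 5.77 in B, and 4.83 and 8.91 in Erythroid. It was 8.12 and 5.49 in CLP, 3.23 and 3.45 in GMP, 8.16 and 4.92 in MEP, and 7.35 and 4.77 in CMP. Mir146 thus had more counts than Mir155 in every library, and the GMP libraries had the lowest ratios of all. The mean log2 ratio was 3.06 ± 0.53 in mature populations and 2.41 ± 0.46 in progenitors (SD, n = 4 each), a difference of 0.65 (two-sided exact permutation p = 0.171, adjusted over 3 tests 0.386).

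**Figure D4:**
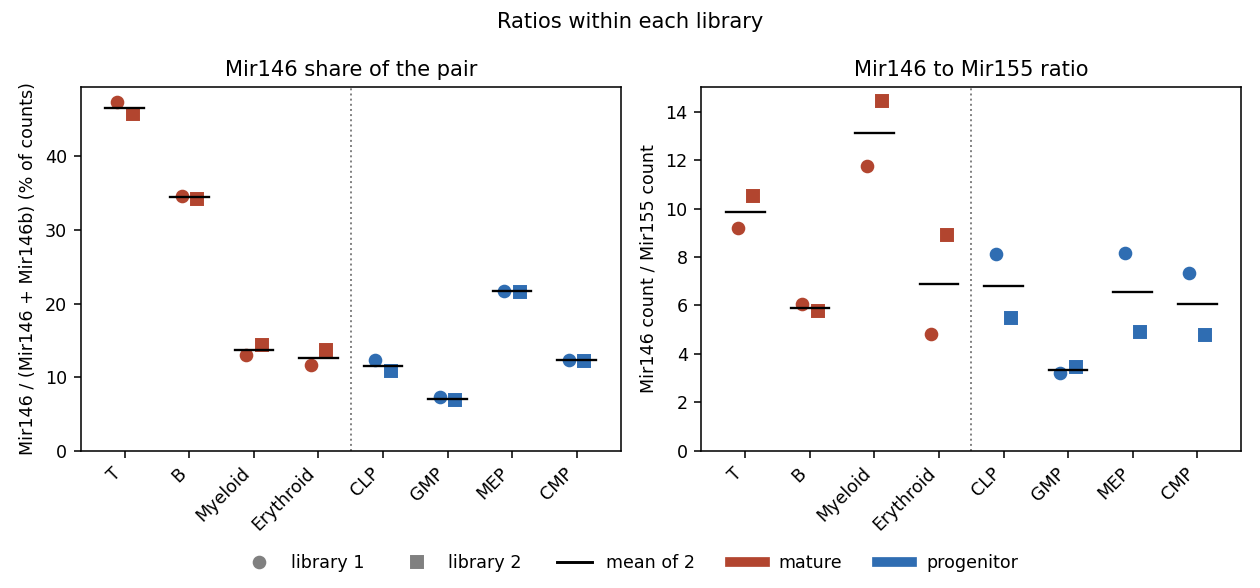
Mir146 as a percentage of the summed counts of Mir146 and Mir146b (left) and the ratio of Mir146 to Mir155 counts (right) in each of the 16 libraries, with bars for the mean of 2. Mir146 gives 45.8% and 47.4% of the pair in the T libraries and 34.2% and 34.7% in the B libraries, above all others.

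Mir155 and Mir146 were set beside 31 further miRNAs reported to respond to Toll-like receptor, NF-kB or lymphocyte activation signals. Of these, 30 were counted and 21 passed the filter. In mature cells over progenitors 10 of the 21 were higher and 2 lower, with a median of 0.85 on the TMM scale. Among all 201 tested miRNAs 80 were higher and 10 lower (median 0.67), and among all 749 features 173 were higher and 200 lower (median -0.07). On miRNAs alone 10 of the 21 were higher and 7 lower (median 0.26), against 59 and 63 of 203 miRNAs (median 0.05). Over library totals 6 of the 21 were higher, against 14.3% of all features. With populations as units 2 of 20 were higher, against 1.49% of all features. The share among miRNAs is not given for these runs, so they do not set the list apart from other miRNAs. With populations as units on miRNAs alone, chosen after the data were seen, 1 of 20 was higher, against 3 of 187 miRNAs.

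The 4 largest called changes of the list on the TMM scale were all higher in mature cells. Mir147, which is induced by Toll-like receptor signals in macrophages, was higher by 2.70 ± 0.28 (adjusted p = 1.03e-05), with 7.61 ± 0.343 CPM in Myeloid, against 0.390 ± 0.166 CPM in GMP. Mir182, which is induced in helper T cells by interleukin-2, was higher by 2.20 ± 0.47 (0.00254), with 5.18 ± 1.44 CPM in T, against 0.284 ± 0.152 CPM in CLP. It had only 214 counts in all libraries and was high in T alone. Its means were 0.550 CPM in B, 0.354 in Myeloid and 0.221 in Erythroid, the last 2 below MEP at 0.395. Mir150, a miRNA of mature lymphocytes, was higher by 2.08 ± 0.24 (2.36e-05), and Mir142, expressed across blood cells, by 1.85 ± 0.27 (0.000147). All 4 were higher on miRNAs alone too, by 2.11, 1.65, 1.46 and 1.27. With populations as units Mir182 (adjusted p = 0.120) and Mir150 (0.0597) did not pass. The 2 members lower in mature cells were Mir99b (-0.84 ± 0.23, adjusted p = 0.00983), of a cluster with Mir125a, and Mir222 (-0.79 ± 0.24, 0.0190). On the TMM scale 7 of the 21 were higher and 1 lower in the lymphoid branch. In the granulocyte-monocyte branch 7 were higher and 0 lower, and in the erythroid branch 2 and 0. Among the 201 tested miRNAs these counts were 38 and 6, 65 and 5, and 5 and 1. Among all 749 features they were 135 and 189, 116 and 122, and 33 and 41. On miRNAs alone the list was balanced, with 8 and 7, 5 and 5, and 5 and 4. Among the 203 miRNAs the counts there were 40 and 45, 39 and 51, and 21 and 43.

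**Figure D5:**
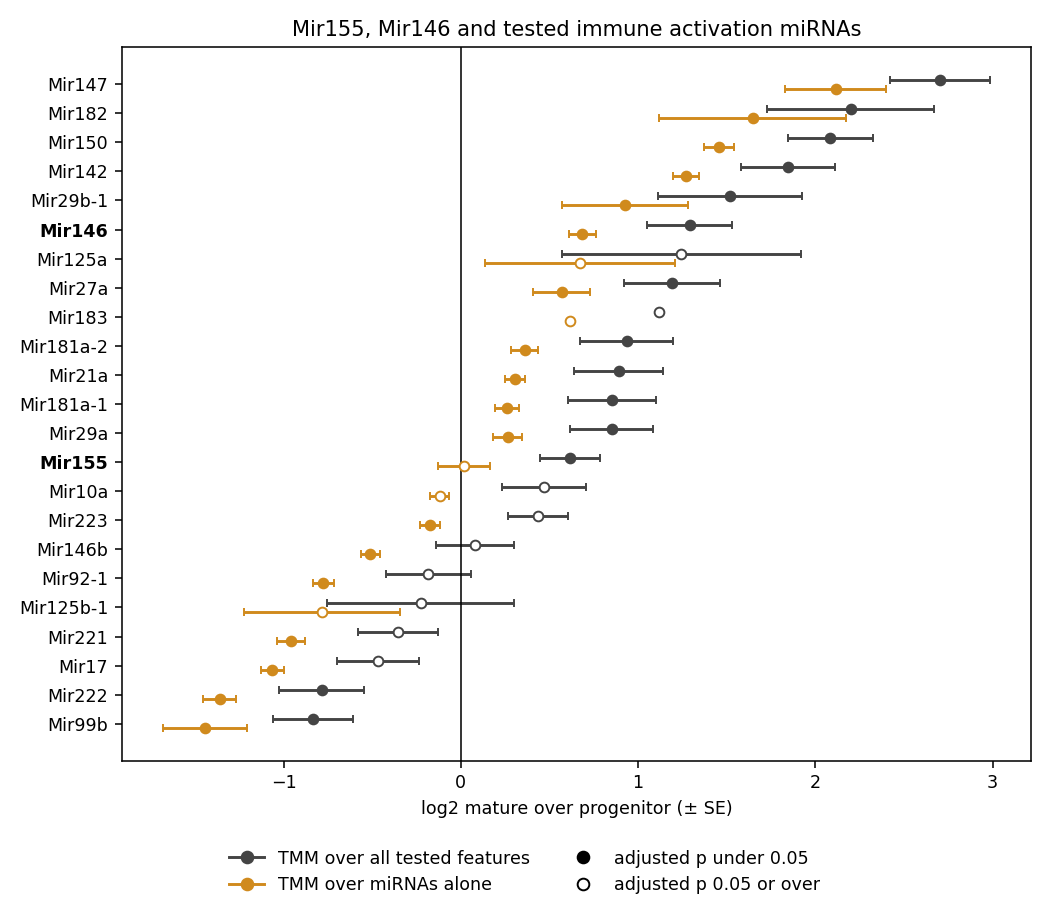
Change in mature cells over progenitors (log2 ± SE) of Mir155, Mir146 and the 21 tested miRNAs of the immune activation list, with TMM over all tested features in grey and over miRNAs alone in orange; no bar is drawn for Mir183, whose test statistic was near 0. Mir146 sits at 1.29 and 0.69 on the 2 scales, and Mir155 at 0.62 and 0.02.

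The features most like each miRNA over the 8 population means were ranked by Pearson's r of log2 CPM, as a description. On the TMM scale Mir155 was most like Snord57 (r = 0.94), Gm24119 (0.94), Mir150 (0.94), Gm26109 (0.94) and Gm22858 (0.92), and all but Mir150 of these are snoRNA intervals. Mir146 was most like Mir342 (0.96), Mir29a (0.94), Mir30c-1 (0.94), Mir532 (0.93) and Mir467a-5 (0.93). On miRNAs alone Mir155 was most like Mir342 (0.76), Mir181a-1 (0.74), Mir150 (0.73), Mir374c (0.72) and Mir27b (0.71), and Mir146 was most like Mir342 (0.94), Mir182 (0.92), Mir150 (0.91), Mir29a (0.88) and Mir30c-1 (0.86). Mir342 and Mir150, both high in lymphocytes, were on both of these last lists. Mir155 and Mir146 correlated at 0.85 on the TMM scale and 0.61 on miRNAs alone, and Mir146 and Mir146b at 0.14 and -0.88. All points of a correlation share their libraries, and on the TMM scale also the miRNA share of each library.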

How the data were processed

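Small RNA was measured in 16 libraries of 8 sorted populations. The deposited values are raw read counts for annotated intervals, without normalization. Per the submitters' processing notes the tools were Trimmomatic 0.38 and Bowtie2 2.3.4.1, on GRCm38. The counting program, its treatment of strand and of reads with several matches, and the annotation are not given in the sources used here. Per the labels' protocols, fragments of snoRNA length were cut from a gel, so recovery of miRNAs may differ between libraries. Intervals that a file does not list were set to 0. Of 1885 intervals, 1882 matched a GENCODE M21 gene by coordinates. Even values made up 89.0% to 93.2% of each library, so both mates seem to have been counted.

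Tests on counts used edgeR 4.0.16 (R 4.3.3): filterByExpr (minimum count 10, grouped by population) kept 749 features, library sizes were TMM-scaled, and each population had its own mean in a quasi-likelihood fit, leaving 8 residual degrees of freedom. Benjamini-Hochberg adjustment ran over all 749, with a threshold of 0.05. SE is the log2 change over the square root of F. The fit was repeated with counts, totals and TMM restricted to miRNAs, defined by type and by a name starting with Mir and a number or with Mirlet. This name rule was set after the files were seen, because 975 intervals are typed as miRNA and only 543 carry such a name. Population means were compared by exact permutation (scipy 1.17.1), with 1 added to counts. The script was tested on simulated counts with a common spread and changes between stages only. That test does not cover differences among populations of a stage or shifts of the miRNA share within pairs.

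Alternatives were DESeq2 1.42.0, other scalings and filters, halved counts, a replicate block and libraries left out. No label states that paired libraries are from separate mice, so the p values reflect library spread only, which may be technical. The members, lists and comparisons were chosen with earlier results of these data known. Mir155, Mir146 and Mir146b were always named, with the 4 largest called changes of the list and the 5 features most alike in pattern; other features named were chosen after their values were seen.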

Additional observations from a re-analysis of the deposited data

Results flagged for a closer look

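The change of Mir155 with maturation differed between branches by a test of the difference itself. B and T over CLP exceeded Myeloid over GMP by 1.49 (log2, adjusted p = 0.0391, edgeR) and Erythroid over MEP by 1.75 (0.0159), and on miRNAs alone by 2.15 (0.000131) and 1.67 (0.00273). Both B and both T libraries stood above both CLP libraries in this miRNA. For the 1.49 the call was lost in 10 of the 16 fits without a library, with the difference between 1.04 and 1.75, and for the 1.75 it was lost without CLP library 1, MEP library 1 or Erythroid library 1. The 1.67 lost its call without MEP library 2 (1.13, adjusted p = 0.0526) or Erythroid library 2 (1.17, 0.0595). The change of Mir146 differed between branches on miRNAs alone. B and T over CLP exceeded Erythroid over MEP by 1.81 (8.94e-08), and Myeloid over GMP exceeded it by 1.42 (4.01e-05). The miRNA share of the libraries moved within the GMP, MEP and Erythroid pairs, and its part in these differences on the TMM scale was not tested.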

How the results depend on the processing

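Depth limits Mir155 most, with 17 to 89 read pairs per library, and a filter of 10 CPM over library totals in 2 libraries removed it from the test, so it has no value there. The rise of both miRNAs in B and T over CLP, and their calls in T over the other 7 populations, held under each alternative run, except Mir155 in B and T over CLP on miRNAs alone without CLP library 1 (0.82, adjusted p = 0.0655 in edgeR). Where the sign or call of a value changed below, the cause was not tested.

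For mature cells over progenitors, Mir155 was at 0.38 over library totals, 0.016 on miRNAs alone and 0.81 with populations as units, none past the threshold. Mir146 was at 1.58 with populations as units. With populations as units on miRNAs alone, chosen after the data were seen, Mir155 was at 0.24 and Mir146 at 0.88 (adjusted p = 0.677 and 0.133, edgeR), neither called. In Myeloid over GMP, Mir155 was at -1.12 on miRNAs alone and -0.21 without library 1 of GMP, MEP and Erythroid. In Erythroid over MEP without these libraries Mir155 was at 0.41 and Mir146 at 1.27, without library 2 of the same 3 Mir146 was at -1.49, and on miRNAs alone it was at -0.57. Mir146 in Myeloid over the other 7 was at -0.080 on miRNAs alone. The share of Mir155 among miRNA counts was higher in mature cells by 0.087 without library 2 of the 3.

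For the lymphoid minus the granulocyte-monocyte change, Mir155 was not called over library totals (0.95), with no filter on low counts (1.38) or without library 2 of the 3 (0.97). Mir146 was at 0.39 on miRNAs alone, 0.051 without library 1 of the 3 and -0.81 (now called) without library 2. For the granulocyte-monocyte minus the erythroid change, Mir155 was at -0.485 on miRNAs alone and -0.62 without library 1 of the 3. Mir146 was called at 1.42 on miRNAs alone, 2.14 with no filter, 2.05 with the 10 CPM filter, 2.11 in DESeq2 and 4.102 without library 2 of the 3. For the lymphoid minus the erythroid change, Mir155 was not called over library totals (1.36). Mir146 was called at 1.91 with RLE size factors, 1.81 on miRNAs alone, 1.78 with no filter, 1.82 with the 10 CPM filter, 1.91 in DESeq2, 1.95 with halved counts, 0.50 without library 1 of the 3 and 3.30 without library 2.

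The number of features called was 458 over all populations (156 on miRNAs alone, where 203 were tested), and 373 in mature cells over progenitors (122 on miRNAs alone, 21 with populations as units, 5 with both). It was 324 in B and T over CLP (85 on miRNAs alone, 196 to 347 without 1 library) and 238 in Myeloid over GMP (90 on miRNAs alone, 137 to 252 without 1 library). It was 74 in Erythroid over MEP, 39 with RLE size factors, 49 with no filter, 235 and 194 without library 1 and library 2 of the 3, and 30 to 81 without 1 library.

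Without 1 library, Myeloid over GMP ran from -0.21 to 0.50 for Mir155 and from 1.72 to 2.52 for Mir146. Erythroid over MEP ran from -0.48 to 0.17 for Mir155 and from -0.98 to 0.73 for Mir146. The lymphoid minus granulocyte-monocyte change ran from 1.04 to 1.75 and from -0.75 to 0.053. The granulocyte-monocyte minus erythroid change ran from -0.084 to 0.62 and from 1.33 to 3.05, and the lymphoid minus erythroid change from 1.41 to 2.06 and from 1.08 to 2.79. On miRNAs alone, chosen after the data were seen, Mir155 ran from -0.012 to 0.20 in mature cells over progenitors, from 0.82 to 1.18 in B and T over CLP and from -1.07 to -0.73 in Myeloid over GMP. Mir146 ran from -0.61 to -0.25 in Erythroid over MEP and from -0.0018 to 0.47 in the lymphoid minus granulocyte-monocyte change. The Mir155 share ran from -0.15 to 0.038. Where a population is left with 1 library, it is assumed to vary like the others, and more features pass the filter.

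Replicate numbers from the labels were not used to pair the samples in the main fit. The correlations below showed no common effect of these numbers, but they cannot show that same-numbered libraries are unrelated. Same-numbered libraries of 28 pairs of populations correlated between -0.476 and 0.283 in their deviations, and 4 pairs were over 0.1. With a replicate block, 365 features were called in mature cells over progenitors, with Mir155 at 0.62 and Mir146 at 1.27, and no call of a member changed.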
